A study of Mus musculus with 6 samples.

Results

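The immediate-early genes Fos, Fosb, Jun, Junb, Egr1, Atf3, Ier2, Ier3, Myc and Zfp36 were followed in the livers of HMGB2-KO and WT mice. Rows of the value table were chosen by gene symbol alone, and all 10 genes were found, each on 1 row, among 19505 named genes. The livers came from 6 male C57BL/6 mice aged 8 weeks, with 3 livers of genotype HMGB2-KO (animals 39, 41 and 32 for replicates 1 to 3) and 3 of genotype WT (animals 38, 40 and 31). No treatment or operation is named in the labels for these animals. Each liver was read on 1 Clariom S mouse array, a single-colour array that summarises each gene from several short probes. The array screen looked for genes whose level goes with that of Hmgb2, which encodes a DNA-bending chromatin protein, in a study of liver regeneration. The sources used here do not say how the allele was made, which exons it lacks or whether it is lost in every cell type.

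Immediate-early genes are transcribed within minutes of a growth, hormonal or stress signal, because the factors that switch them on are already present in the resting cell. MAP kinase and cyclic AMP signals act on them through the serum response factor, its ETS-family partners and CREB, and their mRNAs are short-lived. Many encode transcription factors that go on to drive later genes. In liver they are known as the first genes induced after partial hepatectomy, when hepatocytes leave rest.

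Values are on a log scale taken as log2. They are differences from a baseline of each row, which the sources used here do not describe, and every array was shifted so that its median is 0. Differences between livers can therefore be read, less surely for WT replicate 2, but not a gene's level or its level against another gene. Whether a gene is read above background is also not shown by them. Before centring the array medians ran from -0.05 to 0.01 in 5 livers and stood at 0.26 in WT replicate 2, whose array also held 162 rows over 2 log2 below every other array. The interquartile range of its values was 0.42, against 0.26 to 0.30 in the other livers. After centring, the median of 1091 olfactory receptor rows was still 0.25 there, against -0.07 to 0.01 in the others. Centring thus did not bring this array level with the rest. Hmgb2 was at -0.66, -0.33 and -0.43 in the 3 HMGB2-KO livers, against 0.47, 0.36 and 0.42 in the 3 WT livers, so each liver lay on the side of its label. The log2 fold change of -0.89 (SE 0.13) did not pass adjustment (limma adjusted p = 0.645), and whether the probes lie in the deleted part is not known here.

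None of the 10 genes differed between the genotypes beyond the spread between livers. The test was limma, a linear model per gene in which each gene's variance is drawn towards a value common to all genes. By it 0 of 10 passed the adjusted threshold of 0.05 (all genes: 0%). An unadjusted p under 0.05 was seen for 0 of 10 (all genes: 3.68%), and that together with a 1.5-fold difference for 0 of 10 (all genes: 0.759%). In 0 of 10 did the HMGB2-KO livers lie wholly on 1 side of the WT livers (all genes: 9.67%). The fitted log2 fold change, HMGB2-KO minus WT, was below 0 for 6 genes and above 0 for 4, and 50.5% of all genes were below 0. The median over the 10 genes was -0.12, against -0.00 over all genes. Without centring every fold change shifts down by the same amount, which puts the median over the 10 genes at -0.24 and that of all genes at -0.12. Without HMGB2-KO replicate 3 the median over the 10 genes was 0.03. A difference of at least 1.5-fold was seen for 1 of the 10 genes, Egr1 (all genes: 2.82%). With 3 arrays per genotype the number of arrays limits the precision, and an exact permutation test of 1 gene cannot give a p below 0.1.

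**Figure D1:**
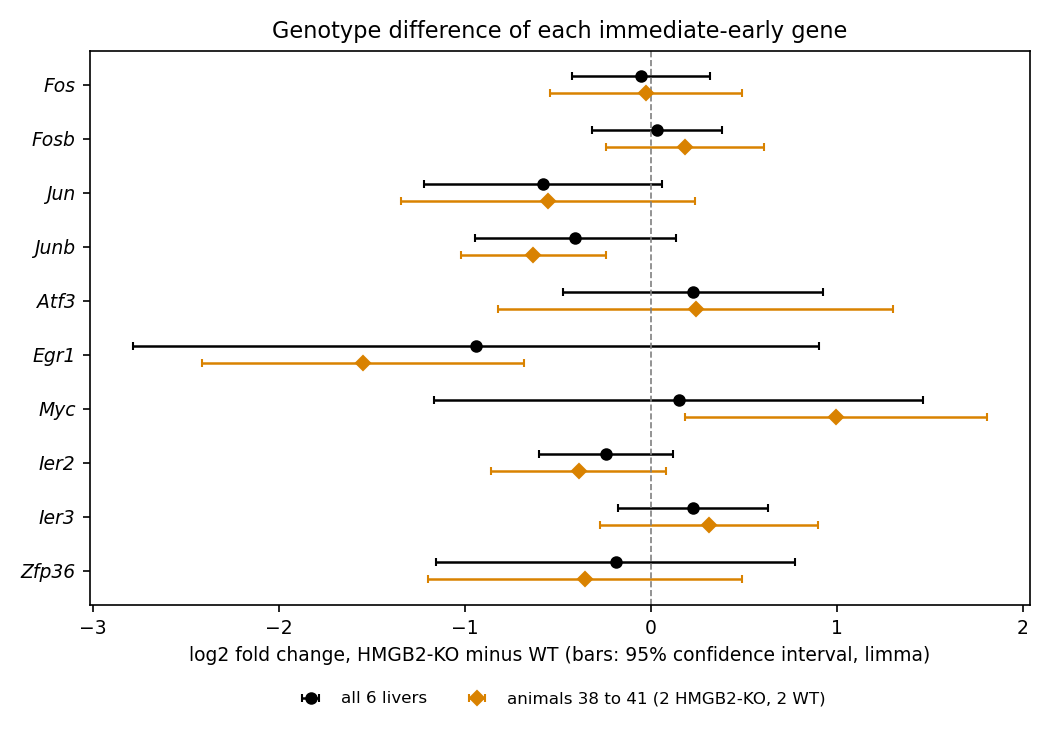
The log2 fold change of each immediate-early gene, HMGB2-KO minus WT, from limma with 95% confidence intervals, over all 6 livers (black circles) and over animals 38 to 41 alone (orange diamonds). Over all 6 livers every interval includes 0. Over animals 38 to 41, those of Junb, Egr1 and Myc do not.

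Fos, Fosb, Jun, Junb and Atf3 encode subunits of AP-1, the dimeric basic leucine zipper factor. FOS and FOSB bind DNA mainly with a JUN partner, JUNB is a weaker activator than JUN, and ATF3 is mostly a stress-induced repressor. The 250 bases upstream of the RefSeq start of 3 AP-1 genes and of Zfp36 are shown to set side by side the start regions of genes with narrow (Fos), intermediate (Junb) and wide (Jun, Zfp36) spread between these livers. They are from assembly GRCm38.p6 and read 5′ to 3′ on the strand of the gene. Capitals mark matches on either strand to the cyclic AMP response element core TGACGT, the AP-1 site TGANTCA, the EGR site GCGNGGGCG, the SP1 site GGGCGG, the TATA box TATAAA or the serum response element.
Fos (chr12:85473640-85473889, plus strand): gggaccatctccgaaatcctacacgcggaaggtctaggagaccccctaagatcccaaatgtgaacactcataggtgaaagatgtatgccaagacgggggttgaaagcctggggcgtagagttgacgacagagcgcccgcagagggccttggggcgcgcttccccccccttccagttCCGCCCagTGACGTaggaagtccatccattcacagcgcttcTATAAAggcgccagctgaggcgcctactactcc
Jun (chr4:95052223-95052472, minus strand): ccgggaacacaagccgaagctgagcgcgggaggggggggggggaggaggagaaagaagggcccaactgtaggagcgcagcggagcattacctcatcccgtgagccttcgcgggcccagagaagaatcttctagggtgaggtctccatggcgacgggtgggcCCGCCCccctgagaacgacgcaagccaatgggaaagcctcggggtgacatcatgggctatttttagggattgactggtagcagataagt
Junb (chr8:84978749-84978998, minus strand): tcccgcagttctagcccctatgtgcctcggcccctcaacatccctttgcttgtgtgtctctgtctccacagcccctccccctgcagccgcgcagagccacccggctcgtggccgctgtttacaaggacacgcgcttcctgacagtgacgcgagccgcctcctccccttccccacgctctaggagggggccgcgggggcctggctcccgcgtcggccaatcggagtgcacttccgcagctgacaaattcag
Zfp36 (chr7:28379229-28379478, minus strand): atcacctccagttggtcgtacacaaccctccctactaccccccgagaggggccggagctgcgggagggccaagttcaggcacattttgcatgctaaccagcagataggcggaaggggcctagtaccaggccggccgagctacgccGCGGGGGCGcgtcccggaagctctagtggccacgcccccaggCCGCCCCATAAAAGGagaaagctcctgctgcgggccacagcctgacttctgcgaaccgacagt
The Fos window held a cyclic AMP response element core ending 60 bases before the start, a TATA box and an SP1 site. Jun had 1 SP1 site, and Junb had no match to any of the 6 motifs. Zfp36 had an EGR site, and an SP1 site that shares 1 base with a match to the serum response element. RefSeq windows were searched for 7 of the 10 genes. Ier2 and Myc had no window at hand, and Egr1 was left out before the search. Of these 7, 2 (Fos and Atf3) held the cyclic AMP response element core, against 6.47% of 32851 promoter windows of the same length. The serum response element was in 1 (all: 1.47%), the EGR site in 2 (all: 4.7%), the SP1 site in 6 (all: 32.7%), the TATA box in 1 (all: 12.4%) and the AP-1 site in 0 (all: 6.75%). These matches describe letters in the window and not binding. Sites further than 250 bases upstream, and those of the genes not searched, were not looked for. A gene without a match here may thus hold the site elsewhere.

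Fos was at -0.47, 0.00 and -0.45 in the HMGB2-KO livers and at -0.20, -0.21 and -0.35 in the WT livers. HMGB2-KO replicate 2 was the highest of all and the other 2 HMGB2-KO livers the lowest, so the genotypes overlapped. Its log2 fold change was -0.05 (SE 0.16, 95% confidence interval -0.42 to 0.32, limma adjusted p = 0.999). Fosb was at 0.07, -0.14 and -0.15 in the HMGB2-KO livers and at -0.29, -0.14 and 0.12 in the WT livers. The 2 ends of the range were both WT livers. Its log2 fold change was 0.03 (SE 0.15, interval -0.31 to 0.38, limma adjusted p = 0.999), and it turned to -0.085 with the values as deposited, to -0.061 without WT replicate 1 and to -0.038 without HMGB2-KO replicate 1. Fos turned to 0.029 without HMGB2-KO replicate 1 and to 0.020 without HMGB2-KO replicate 3.

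Jun had the smallest p of the 10 genes. It was at -1.11, -1.51 and -0.88 in the HMGB2-KO livers and at -0.34, -1.18 and -0.24 in the WT livers. WT replicates 1 and 3 lay above every HMGB2-KO liver, while WT replicate 2 lay among them. Mean values were -1.17 ± 0.32 in HMGB2-KO and -0.58 ± 0.51 in WT (SD, n = 3 each). This gave a log2 fold change of -0.58 (SE 0.28, interval -1.22 to 0.06, limma adjusted p = 0.994), and the exact two-sided permutation p was 0.3. Without WT replicate 2, the array that stood apart, it was -0.88 (SE 0.20, limma unadjusted p = 0.00345, adjusted p = 0.9995), where 3.24% of all genes had an unadjusted p under 0.05. The direction was the same under all 16 alternatives.

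Junb was at -0.77, -0.67 and -0.86 in the HMGB2-KO livers, a narrow band, and at -0.05, -0.12 and -0.91 in the WT livers. WT replicates 1 and 2 were above that band, and WT replicate 3 was the lowest liver of all. Junb had a log2 fold change of -0.41 (SE 0.23, interval -0.94 to 0.13, limma adjusted p = 0.994). Leaving out WT replicate 3 made it -0.68 (SE 0.14, limma unadjusted p = 0.00204, adjusted p = 0.875), where 4.84% of all genes had an unadjusted p under 0.05. Leaving out WT replicate 1 made it -0.25. Atf3 was at -0.32, -0.65 and -0.41 in the HMGB2-KO livers and at -0.08, -1.37 and -0.61 in the WT livers. Its highest and lowest livers were both WT, with WT replicate 2 lowest. Atf3 had a log2 fold change of 0.23 (SE 0.30, interval -0.47 to 0.93, limma adjusted p = 0.994), and it turned to -0.12 without WT replicate 2 and was 0.53 without WT replicate 1. With arrays centred, Jun, Junb and Atf3 had negative values in all 6 livers, as had 7.35% of all genes. As deposited, Junb was at 0.13 in WT replicate 2, above its row baseline.

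**Figure D2:**
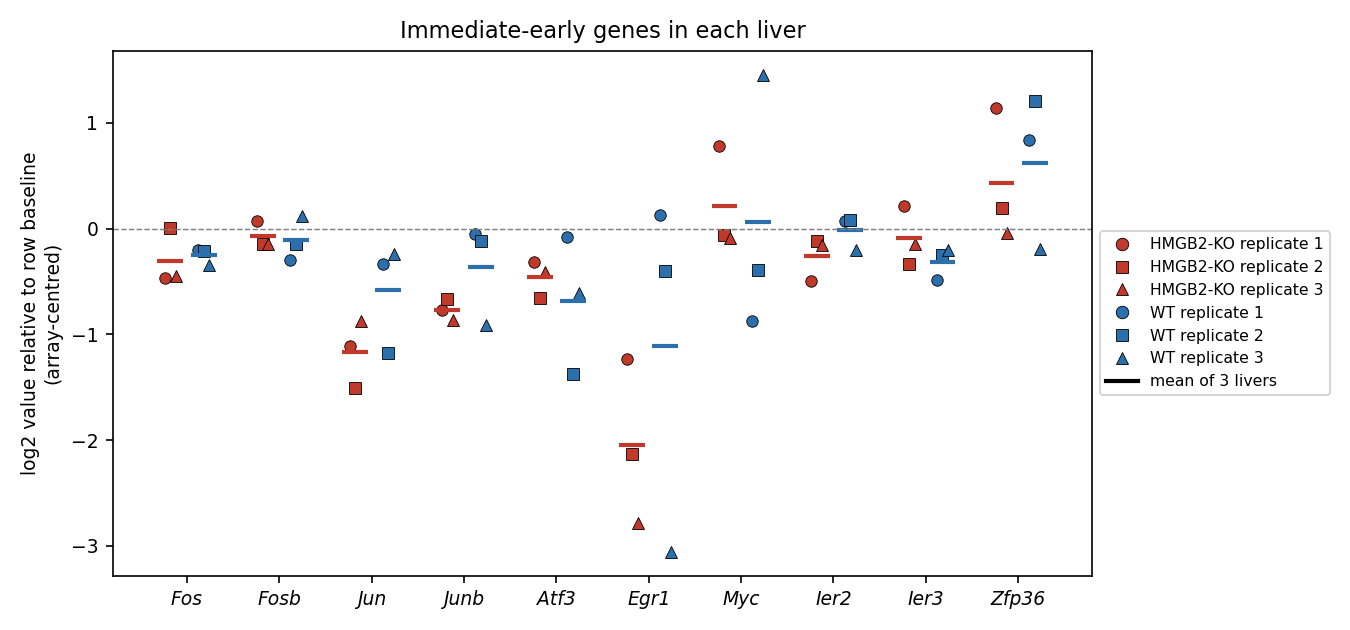
Centred log2 values of the 10 genes relative to each row's baseline, with HMGB2-KO livers (red) left of WT livers (blue), 1 symbol per replicate number and a bar at each mean. Egr1 runs from -3.06 to 0.13 and Myc from -0.87 to 1.46, while Fos and Fosb stay within 0.47 log2.

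Egr1 and Myc, a zinc finger factor and a basic helix-loop-helix factor that drives growth and ribosome production, varied most between livers. Egr1 was at -1.24, -2.13 and -2.78 in the HMGB2-KO livers and at 0.13, -0.40 and -3.06 in the WT livers. WT replicates 1 and 2 were the 2 highest and WT replicate 3 the lowest, so the HMGB2-KO livers lay inside the WT range. Mean values were -2.05 ± 0.78 in HMGB2-KO and -1.11 ± 1.71 in WT (SD, n = 3 each). The log2 fold change of -0.94 had an SE of 0.79 and an interval of -2.79 to 0.90 (limma adjusted p = 0.994). It was -1.91 when WT replicate 3 was left out (SE 0.43, limma unadjusted p = 0.00319, adjusted p = 0.875, all genes with an unadjusted p under 0.05: 4.84%). It was -0.32 when WT replicate 1 was left out.

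Myc was at 0.78, -0.06 and -0.09 in the HMGB2-KO livers and at -0.87, -0.40 and 1.46 in the WT livers. Here too the WT livers took both ends of the range, in the opposite order to Egr1. Myc had a log2 fold change of 0.15 (SE 0.57, interval -1.17 to 1.46, limma adjusted p = 0.999). It grew to 0.85 when WT replicate 3 was left out (SE 0.30, limma unadjusted p = 0.0274, adjusted p = 0.875, all genes with an unadjusted p under 0.05: 4.84%). It turned to -0.32 when WT replicate 1 was left out, to -0.081 for WT replicate 2 and to -0.14 for HMGB2-KO replicate 1.

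The remaining genes act outside AP-1. Ier2 encodes a small nuclear protein. It was at -0.49, -0.12 and -0.15 in the HMGB2-KO livers and at 0.08, 0.09 and -0.20 in the WT livers. WT replicate 3 again lay with the HMGB2-KO livers, and the log2 fold change was -0.24 (SE 0.15, interval -0.60 to 0.12, limma adjusted p = 0.994). It was -0.12 without HMGB2-KO replicate 1, the lowest liver. Ier3, a stress-induced regulator of cell survival, was at 0.22, -0.33 and -0.15 in the HMGB2-KO livers and at -0.49, -0.25 and -0.20 in the WT livers. HMGB2-KO replicate 1 was the highest and WT replicate 1 the lowest. Its log2 fold change was 0.23 (SE 0.17, interval -0.17 to 0.63, limma adjusted p = 0.994), and it was 0.073 without HMGB2-KO replicate 1 and 0.14 without WT replicate 1. Zfp36 encodes tristetraprolin, which binds AU-rich elements in short-lived mRNAs and brings on their decay. It was at 1.14, 0.20 and -0.04 in the HMGB2-KO livers and at 0.84, 1.21 and -0.19 in the WT livers. Replicate 3 was the lowest liver in both genotypes. Zfp36 had a log2 fold change of -0.19 (SE 0.42, interval -1.16 to 0.78, limma adjusted p = 0.997). It turned to 0.10 when WT replicate 2 was left out and to 0.048 for HMGB2-KO replicate 3, and was -0.59 for WT replicate 3.

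The 10 genes differed widely in how much they varied from liver to liver. The range over the 6 livers was 3.19 log2 for Egr1, which ranks at 99.4% of all genes counted from the narrowest. It was 2.33 for Myc (98.3%), 1.40 for Zfp36 (94.8%), 1.29 for Atf3 (93.9%) and 1.27 for Jun (93.6%). It was 0.86 for Junb (84.5%), 0.71 for Ier3 (74.0%), 0.58 for Ier2 (59.4%), 0.47 for Fos (41.3%) and 0.42 for Fosb (31.5%). A range over 1 log2 was thus seen for 5 of the 10 genes (all genes: 10.7%), and the median range was 1.06 for the 10 genes and 0.52 for all genes. These ranges include WT replicate 2, the array that centring did not bring level. Over all genes it was the highest liver for 21.8% and the lowest for 22.3%. Atf3 was at -1.37 there and between -0.65 and -0.08 in the other livers, so its range over 1 log2 rests on that array. WT replicate 2 was also the highest liver for Zfp36 and Ier2. For Egr1, Myc, Zfp36, Atf3, Junb and Fosb both the highest and the lowest of the 6 livers were WT. The share of all genes for which this holds was not counted, so it is not read as particular to these genes. Since a bulk liver holds several cell types, fewer cells of a type and less RNA per cell cannot be told apart.

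**Figure D3:**
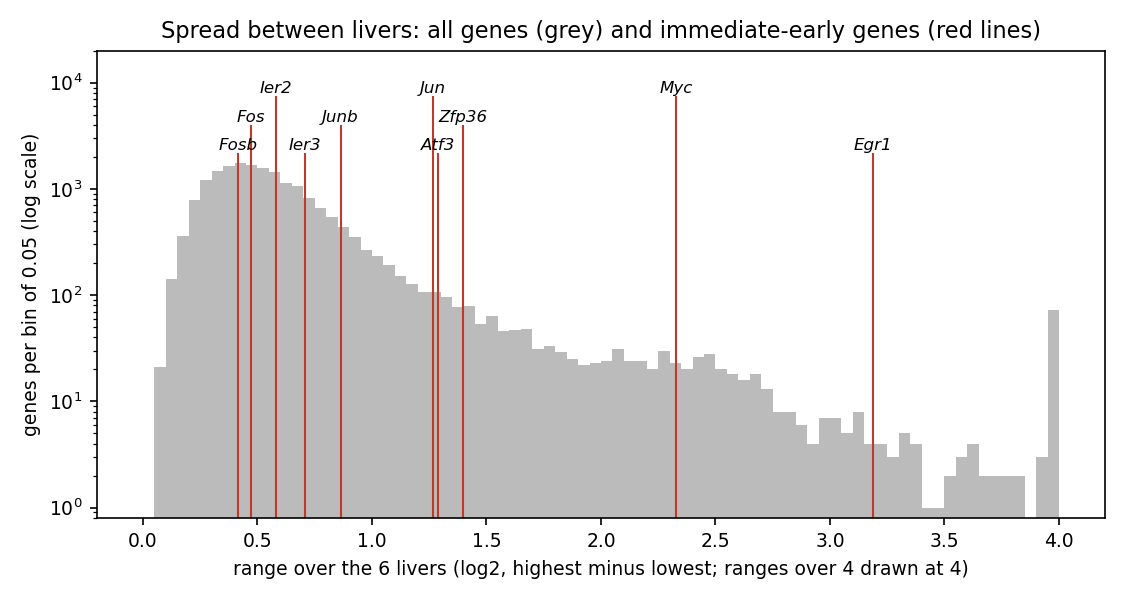
Range over the 6 livers (highest minus lowest log2 value) for all 19505 genes as a grey histogram with a logarithmic count axis, and for the 10 immediate-early genes as red lines, with ranges over 4 drawn at 4. Egr1 (3.19) and Myc (2.33) lie in the far right tail, and Fosb (0.42) and Fos (0.47) in the bulk.

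No liver was high or low for all 10 genes. After each gene was set against its own mean over the livers, the median over the 10 genes was 0.21, -0.12 and -0.11 in HMGB2-KO replicates 1 to 3 and 0.26, 0.01 and -0.05 in WT replicates 1 to 3. Genes above their mean numbered 6, 2 and 2 in the HMGB2-KO livers and 7, 5 and 3 in the WT livers. Over all 19505 genes the numbers were 9577, 9899 and 10148 in the HMGB2-KO livers and 10831, 9696 and 9962 in the WT livers. HMGB2-KO replicate 3 was the highest liver for 0 of the 10 genes (all genes: 17.6%) and the lowest for 0 (all genes: 15.3%). WT replicate 1 was highest for 3 genes (all genes: 16%) and lowest for 3 (all genes: 12%). WT replicate 3 was likewise highest for 3 (all genes: 15%) and lowest for 3 (all genes: 17.2%), so opposite extremes met in the same liver.

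The 2 replicates numbered 3 came from animals 32 (HMGB2-KO) and 31 (WT), and the other livers from animals 38 to 41. The labels give the numbers and no litter or day. Egr1, Junb and Zfp36 were lower in both animals 31 and 32 than in each of the other 4 (3 of 10 genes, all genes: 9.32%), and 0 of 10 genes were higher in both (all genes: 10.4%). Egr1 stood at -2.78 in animal 32 and at -3.06 in animal 31, against a span of -2.13 to 0.13 over animals 38 to 41. With this number class as a term in the fit, Jun and Junb had an unadjusted limma p under 0.05, both lower in HMGB2-KO, (all genes: 4.19%), and 0 genes passed after adjustment.

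Within animals 38 to 41 alone, with 2 livers of each genotype, 3 of the 10 genes had an unadjusted limma p under 0.05 (all genes: 3.78%). Egr1 had a log2 fold change of -1.55 (SE 0.35, unadjusted p = 0.00504), Junb of -0.63 (SE 0.16, unadjusted p = 0.00784) and Myc of 0.99 (SE 0.33, unadjusted p = 0.0245). The adjusted p in limma was 0.982 for each, and an exact permutation test of 2 against 2 livers cannot give a p below 0.333. The genotypes did not overlap for 5 of the 10 genes in these 4 livers (all genes: 32.8%). Egr1, Junb and Ier2 lay lower in HMGB2-KO (all genes: 18%), and Myc and Fosb higher. Jun, by contrast, was at -0.55 (SE 0.32), and overlapped.

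The same difference between animals 32 and 31, with 1 liver of each genotype, was 0.28 for Egr1, 0.05 for Junb and -1.54 for Myc. It was -0.63 for Jun, beside -0.55 in animals 38 to 41. The change in genotype effect between these sets of animals was tested in limma as an interaction, chosen after the data were seen, in which animals 31 and 32 are assumed to vary like the others. Myc had the smallest unadjusted p of the 10 genes, with a difference of effects of -2.54 (SE 0.56, unadjusted p = 0.00490). It was 1.82 for Egr1 (SE 0.60, unadjusted p = 0.0250) and 0.68 for Junb (SE 0.27, unadjusted p = 0.0485). These were 3 of the 10 genes, with 3.17% of all genes past that threshold. After adjustment 0 of all genes passed (adjusted p = 0.9999 for each of the 3). Animal number and the animals' own variation cannot be told apart in these livers.

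Genes that act with the 10, or above and below them, were grouped in 9 lists of 167 distinct measured genes. None passed the adjusted threshold, and the limma adjusted p was 0.994 for each of the 27 genes named by their p. By an unadjusted p under 0.05, 1 gene was higher in HMGB2-KO (all genes: 1.06%) and 5 were lower (all genes: 2.61%). Genotypes did not overlap for 8 higher genes (all genes: 4.32%) and 8 lower genes (all genes: 5.35%). Of the 9 list medians, all but that of short-lived inflammatory mRNAs lay above 0 with centred arrays, and all 9 lay below 0 with the values as deposited, where the median of all genes was -0.12. Counts above 0 are therefore given for centred arrays, in which 50.5% of all genes lay below 0.

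Among other AP-1 partners, 6 of 11 had a log2 fold change above 0, and the median was 0.0011. Batf2 (1.23, SE 0.80) and Mafg (0.98, SE 0.74), both basic leucine zipper genes, had the highest values of this list. On the array of WT replicate 2 they stood at -3.38 and -2.79, and without that array Batf2 was at 0.15 and Mafg at -0.012. Jdp2, a repressor that pairs with JUN, was at 0.22 (SE 0.18). Leaving out HMGB2-KO replicate 2 put Jdp2 at 0.061.

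Among other immediate-early transcription factors, 14 of 21 lay above 0, with a median of 0.07. Hes1, a repressor downstream of Notch, was at -0.52, -0.05 and -0.17 in the HMGB2-KO livers and at 0.10, 0.18 and 0.14 in the WT livers. All HMGB2-KO livers lay below all WT livers, with a log2 fold change of -0.38 (SE 0.15, unadjusted p = 0.0347 in limma), or -0.25 without HMGB2-KO replicate 1. Klf2, a shear-responsive factor, was at 0.24 (SE 0.14) and Ier5l at 0.59 (SE 0.38), and without WT replicate 2 they were at 0.15 and 0.11.

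Over the 9 lists, 24 of 167 genes were lower in both animals 31 and 32 than in the other 4 livers (14.4%, all genes: 9.32%) and 17 were higher in both (10.2%, all genes: 10.4%). The counts lower and higher were 1 and 0 of 11 AP-1 partners, 5 and 2 of 32 signalling and feedback genes, and 1 and 2 of 22 upstream genes. They were 1 and 1 of 13 genes of the MYC network, 1 and 3 of 18 decay genes and 4 and 2 of 17 inflammatory mRNAs. The 3 other lists are given with their genes, which were named after their values were seen. Among these transcription factors Nr4a2, Klf10, Csrnp1, Cebpb and Per1 were lower in both animals (5 of 21), and Klf4 was higher in both (1 of 21). Klf10, a repressor under clock and growth factor control, was at 1.65, 1.84 and 0.32 in HMGB2-KO replicates 1 to 3 and at 2.10, 1.49 and 0.13 in WT replicates 1 to 3. Per1, a core clock gene that is also induced by cyclic AMP, was at 0.49, 0.72 and -0.44 in the HMGB2-KO livers and at 0.12, 0.70 and -1.55 in the WT livers. In both genes the third liver of each genotype was the low one.

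Among signalling and feedback genes, 18 of 32 lay above 0, with a median of 0.03. The smallest p of the 9 lists belonged to Dusp1, a phosphatase that switches off MAP kinases and is itself an immediate-early gene. Dusp1 was at 0.30, 0.08 and -0.04 in the HMGB2-KO livers and at 0.85, 0.40 and 1.40 in the WT livers. All 3 HMGB2-KO livers lay below all 3 WT livers, unlike in any of the 10 members. The log2 fold change was -0.77 (SE 0.25, unadjusted p = 0.0152 in limma), and with 1 liver left out it ran from -1.01 (WT replicate 2) to -0.51 (WT replicate 3). Spry2, an inhibitor of receptor tyrosine kinase signalling, was at -0.29 (SE 0.12, unadjusted p = 0.0467 in limma), and Mcl1, a survival gene, at 0.21 (SE 0.14), or 0.093 without HMGB2-KO replicate 1.

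Upstream kinases and the factors TCF, SRF and CREB had 12 of 22 genes above 0 and a median of 0.0053. The kinase Mapk8, which phosphorylates JUN, was at -0.30 (SE 0.14), the SRF partner Elk1 at 0.24 (SE 0.12) and the growth factor receptor Met at 0.21 (SE 0.13). Without HMGB2-KO replicate 1 Mapk8 was at -0.19, and without WT replicate 1 Met was at 0.12. In the MYC network 9 of 13 genes lay above 0, with a median of 0.11. Mga, whose protein pairs with MAX and represses MYC sites, was at 0.37 (SE 0.14, unadjusted p = 0.0340 in limma), Mxd3, of the MYC-opposing MXD family, at 0.22 (SE 0.16) and the MYC paralogue Mycl at 0.17 (SE 0.15). Leaving out WT replicate 3 put Mxd3 at 0.12, and leaving out HMGB2-KO replicate 1 put Mycl at 0.097.

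Known MYC target genes numbered 13 of 20 above 0, with a median of 0.01. The nucleolar genes Fbl and Ncl were at 0.29 (SE 0.12) and 0.17 (SE 0.15), and the chaperone Hspd1 at 0.22 (SE 0.14). Ncl was at 0.057 without HMGB2-KO replicate 3, and Hspd1 at 0.14 without WT replicate 2. Odc1, Ldha, Eif4e, Cdk4 and Srm, named after their values were seen, were higher in both animals 31 and 32 than in the other 4 livers (5 of 20, all genes: 10.4%), and 0 of 20 were lower in both. Odc1, the first enzyme of polyamine synthesis, was at -0.16, 0.23 and 0.81 in the HMGB2-KO livers and at -0.15, -0.23 and 0.35 in the WT livers. Myc itself was highest in animal 31 (1.46) but at -0.09 in animal 32.

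Genes of AU-rich mRNA decay, the process in which Zfp36 acts, had 12 of 18 above 0 and a median of 0.09. Xrn1, the exonuclease that degrades decapped mRNA, was at 0.25 (SE 0.12), the deadenylase Cnot6l at 0.20 (SE 0.13) and the RNA-binding protein gene Tia1 at 0.28 (SE 0.19). Cnot6l was at 0.13 without HMGB2-KO replicate 1, and Tia1 at 0.18 without HMGB2-KO replicate 3. Short-lived inflammatory mRNAs, several of them known targets of tristetraprolin, had 8 of 17 above 0 and a median of -0.0099, or 0.011 with quantile normalization. The chemokine Cxcl1 was at -0.34 (SE 0.14, unadjusted p = 0.0463 in limma), the cytokine Il6 at -0.29 (SE 0.18) and the adhesion molecule Icam1 at 0.34 (SE 0.20). Without WT replicate 2 Il6 was at -0.13 and Icam1 at 0.13.

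The integrated stress response, in which Atf3 takes part, had 8 of 14 genes above 0 and a median of 0.05. The cystine transporter Slc7a11 was at -0.34 (SE 0.13, unadjusted p = 0.0299 in limma), the stress-induced Nupr1 at -0.22 (SE 0.13) and the mTORC1 inhibitor Ddit4 at 0.79 (SE 0.41), or 0.31 without HMGB2-KO replicate 1. In this list 6 of 14 genes were lower in both animals 31 and 32 than in the other 4 livers (all genes: 9.32%), and 1, Atf4, was higher in both. Asns, asparagine synthetase, one of the 6 and named after its values were seen, was at -0.34, 0.60 and -0.73 in the HMGB2-KO livers and at -0.13, -0.52 and -1.08 in the WT livers.

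**Figure D4:**
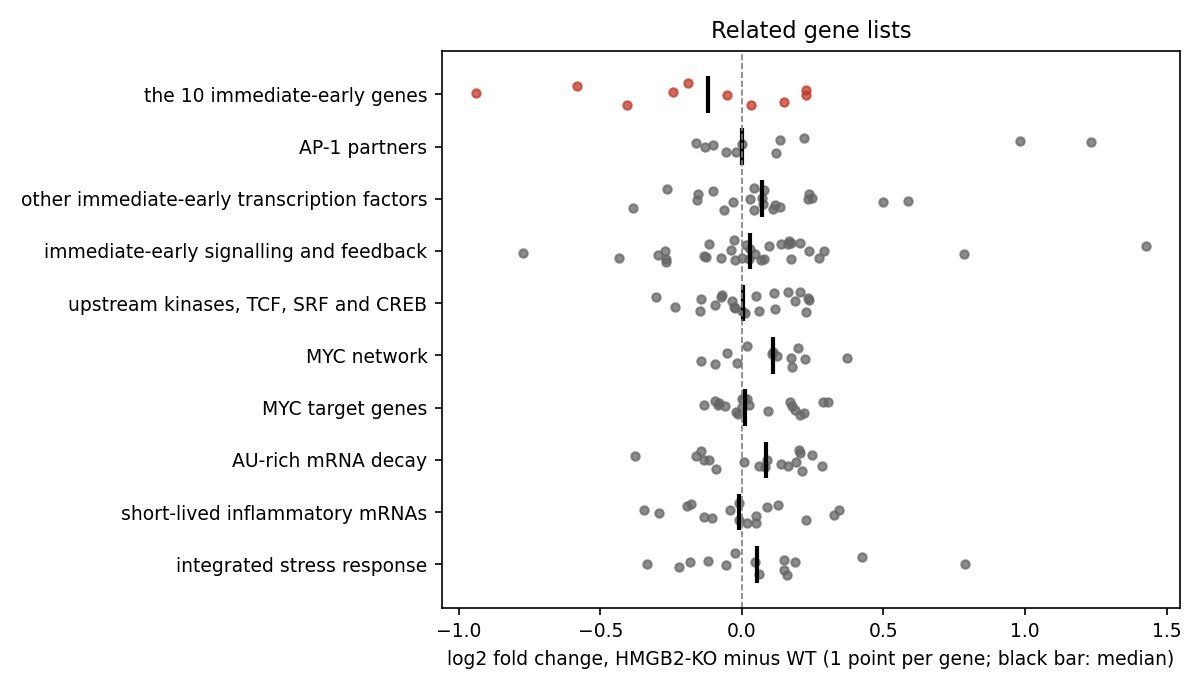
Log2 fold change, HMGB2-KO minus WT, of the 10 immediate-early genes (red) and of the genes of the 9 related lists (grey), 1 point per gene with a black bar at the median. The medians lie between -0.12 and 0.11.

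The genes most like Egr1, Myc and Zfp36 over the 6 livers were found by the root mean square difference, in log2, between values set against each gene's own mean. Those nearest to Egr1 were Vmn2r75, Krtap20-2, Cd70, Olfr794 and Retreg1, at 0.44 to 0.53. Nearest to Myc were Rsph14 (0.39), the histone genes H3c14, H3c15 and H3c11 and Arid5b, up to 0.46. H3c14 and H3c15 were at the same distance (0.42) and had the same range (1.28), so they may not be separate readings. Nearest to Zfp36 were Olfr1181, Fam13a, Rundc3b, Flvcr2 and A4galt, at 0.16 to 0.19. None of the 10 immediate-early genes was among these nearest genes. The nearest genes include olfactory and vomeronasal receptor genes. No filter on low values was used, so whether they are read above background in liver is not known here. Within the 10, the most alike were Fosb and Ier3 (0.15) and Fos and Ier2 (0.17).

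Markers of 8 liver and blood cell types were read beside these genes, 39 of 44 of them measured. None passed the adjusted threshold. The endothelial gene Pecam1 was the 1 of 39 with an unadjusted limma p under 0.05 (all genes: 3.68%), at 0.59, 0.58 and 0.63 in the HMGB2-KO livers and 0.25, 0.05 and -0.13 in the WT livers. The 6 endothelial markers had a median log2 fold change of 0.07, with Kdr at -0.0052, Clec4g at -0.035 and Cdh5 at 0.05 beside Lyve1 at 0.63. The Kupffer cell markers had a median log2 fold change of 0.17, those of neutrophils -0.10 and those of hepatocytes 0.09. The hepatocyte markers were lowest in WT replicate 2 for 5 of 6 genes. Since the values hold no level, the labelled tissue could not be checked against its markers. The part of cell type makeup in the values of the immediate-early genes was not tested.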

How the data were processed

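Total liver RNA was extracted with Trizol and biotin-labelled in duplicate, per the labels' protocols. The deposited table holds 1 column per liver of log2-scale values relative to a row baseline (22206 rows). The sources used here do not give the base of the logarithm, the probe summary, the normalization, the baseline or how duplicates were joined. No column was left unused (0). The platform annotation names 1 gene for 19572 rows, several for 0, and leaves 2634 unnamed here. Where a gene had several rows (55 genes) its row of highest mean was used. Each array was centred on its median. limma 3.58.1 (R 4.3.3) compared the genotypes by lmFit and eBayes over all 6 livers, two-sided, with Benjamini-Hochberg adjustment over 19505 genes and no filter on low values. The procedure was tested on simulated data with independent values and the same spread of a gene on every array. An array that stands apart and effects shared by neighbouring animals were not simulated.

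The members and lists were chosen with earlier results of these data known. Named genes were the 10 members, Hmgb2, the 3 genes per list with the smallest p, and the 5 genes nearest to each of the 3 members of widest range. Exceptions are stated as named after their values were seen, and the endothelial markers are among them. No 2 arrays held identical values (0 pairs). The labels name separate animals but not how they were housed or processed. The p-values thus set the genotype difference against the spread between these livers within a genotype. Promoter windows are from RefSeq, assembly GRCm38.p6. Alternatives covered centring, quantile normalization, row choice, unnamed rows, array weights, variance moderation, the replicate block, animal number and leaving out each liver. The interaction with animal number was added after seeing the data.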

Additional observations from a re-analysis of the deposited data

How the results depend on the processing

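No gene passed the adjusted threshold under any of the 16 alternatives, so no member did (0 in each). Over the 10 members, 149 of 160 fold changes kept their direction and 11, in 5 members, did not. Fosb turned to -0.085 with the values as deposited. With 1 liver left out Fos ran from -0.21 to 0.029, Fosb from -0.061 to 0.15, Atf3 from -0.12 to 0.53, Myc from -0.32 to 0.85 and Zfp36 from -0.59 to 0.10. Among 27 genes named from the lists 1, Mafg, turned, running from -0.012 to 1.51. The number of members with an unadjusted p under 0.05, 0 in the fit reported, was 1 as deposited (all genes: 4.85%), 1 with quantile normalization (3.74%) and 1 with array weights (3.98%), Jun each time. It was 2 with the animal number term (4.19%) and 3 within animals 38 to 41 (3.78%), and ran from 0 to 3 with 1 liver left out (3.08% to 4.84%). Members whose genotypes did not overlap, 0 in the fit reported, numbered 1 as deposited (all genes: 11.4%), 5 within animals 38 to 41 (32.8%) and 0 to 4 with 1 liver left out (17.9% to 21.8%). With fewer livers groups overlap less often over all genes too. Genes past both 1.5-fold and an unadjusted p of 0.05 numbered 148 in the fit reported, 290 as deposited, 378 within animals 38 to 41, 63 without moderation and 158 to 331 with 1 liver left out. The share of these that were lower in HMGB2-KO was 92.6% in the fit reported and 62.0% without WT replicate 2. The cause was not tested. With the replicate number as a block, 1 member had an unadjusted p under 0.05 (all genes: 4.4%), and 209 genes passed both limits. That member was Jun, at -0.58 (SE 0.14, limma unadjusted p = 0.00722, adjusted p = 0.922). In the same fit Egr1 was at -0.94 (SE 0.38, limma unadjusted p = 0.0520, adjusted p = 0.922). The labels name no pairs, so the fit reported took none. Same-numbered livers came from neighbouring animal numbers (38 and 39, 40 and 41, 31 and 32). Over genes they deviated together with correlations of 0.04, 0.13 and 0.29, and livers of unlike number with -0.21 to 0.10. HMGB2-KO replicates 2 and 3 were closest to the WT liver of their own number, and HMGB2-KO replicate 1 to WT replicate 2 (0.10). Whether the animals were paired is not known here. The number of arrays, 3 per genotype, limits the precision.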
